A study of Mus musculus with 80 samples.

Results

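The genes described here are 8 genes of cholesterol export, sensing and synthesis, namely Abca1, Abcg1, Apoe, Nr1h2, Nr1h3, Srebf1, Srebf2 and Hmgcs1, out of 25899 genes in the expression table. They were picked by symbol for their known roles, and Abca1 was included because the study lists it among genes specific to EOM, a list that was itself made from the pre-graft libraries. The values that chose Abca1 are therefore given below as a description, without a test. All 8 genes were chosen with earlier results of these data known, so tests of the others are not fully independent of the choice. Hmgcs1 is on the study's TA-specific list, made from the same pre-graft libraries. The label under which the genes were grouped also names uptake, but none of the 8 is an uptake receptor; Apoe is a ligand of such receptors, and the receptors were looked at in a wider list. RNA was sequenced from muscle stem cells (MuSCs) of the extraocular muscles (EOM), which move the eye, and of the tibialis anterior (TA), a limb muscle. The donors were male Tg:Pax7-nGFP mice (C57BL/6;DBA2 F1/JRj) of 7 or 7.6 weeks, in which nuclear GFP under control of Pax7, the transcription factor that marks these cells, allows them to be sorted. Pre-graft libraries were made from 500 sorted cells. For grafts, the host was Rag2-/-;γC-/-, a strain that lacks lymphocytes, and its TA had been injured with cardiotoxin the day before. EOM and TA cells of a donor went into separate TAs of the same host, and GFP-positive cells were sorted again at a label time of 21 days. The study's results give a later time than the labels, and its methods a range of weeks that starts at the label time. The sorted grafts had a median of 35 cells for EOM (lowest 9) and 26 cells for TA (lowest 16). The second sort selected cells by GFP, the label of the donor, and whether other cells were carried along was not tested. Cells grafted from either muscle were read only in a TA environment.

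Cells hold cholesterol within limits through a pair of opposing programmes. When sterols are scarce in the endoplasmic reticulum, the SREBP precursors are carried by Scap to the Golgi, cleaved by the proteases Mbtps1 and Mbtps2 and enter the nucleus, where SREBP2 (gene Srebf2) drives the mevalonate pathway and lipoprotein uptake, and SREBP1 (gene Srebf1) mainly fatty acid synthesis. Insig proteins hold Scap back when sterols are plentiful. When cholesterol and its oxidised derivatives accumulate, the liver X receptors LXRα (Nr1h3) and LXRβ (Nr1h2), bound to DNA with a retinoid X receptor, switch on the exporters Abca1 and Abcg1, the lipoprotein Apoe, and Srebf1. Hmgcs1 is a synthase of the first steps of the mevalonate pathway.

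On GRCm38 the table places Abca1 at chr4:53030787-53159895, Abcg1 at chr17:31057698-31115777, Apoe at chr7:19696109-19699166, Nr1h2 at chr7:44549616-44553951 and Nr1h3 at chr2:91184061-91202834. Srebf1 is at chr11:60199089-60222581, Srebf2 at chr15:82147266-82205376 and Hmgcs1 at chr13:119690462-119708086. All except Abcg1, Srebf2 and Hmgcs1 are on the minus strand.

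The promoters of several of these genes hold short sequences that the regulators are known to bind, and they are shown because LXRs and SREBPs are known to act through sites of these kinds. RefSeq promoter windows on GRCm38.p6, from 250 bases before to 50 bases after each annotated start, were at hand for 7 of the 8 genes, all except Abcg1, and the part before the start was searched on both strands. The motif GGTTANNNNCGGTCA, a direct repeat with a spacer of 4 bases of the kind LXR binds, was written after these promoters had been read. It was found in 4 of 32851 windows (0.0122%), those of Abca1, Srebf1, Fasn (fatty acid synthase) and Prrg4. The stretches below are on the strand of the gene, with the match in capitals as its reverse complement. That of Abca1 lies at chr4:53159908-53160002 (minus strand), with the match 67 to 53 bases before the start. That of Srebf1 lies at chr11:60210599-60210693 (minus strand), in 1 of 3 windows of that gene, with the match 182 to 168 bases before the start. That of Fasn lies at chr11:120824718-120824797 (minus strand).
Abca1: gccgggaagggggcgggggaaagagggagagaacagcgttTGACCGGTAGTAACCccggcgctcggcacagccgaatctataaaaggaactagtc
Srebf1: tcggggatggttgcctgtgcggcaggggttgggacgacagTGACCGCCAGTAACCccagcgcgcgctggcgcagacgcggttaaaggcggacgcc
Fasn: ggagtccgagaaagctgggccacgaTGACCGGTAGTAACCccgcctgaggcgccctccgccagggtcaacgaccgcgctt

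The second motif, TCACCCCA, is the core of a sterol regulatory element, the kind of site SREBPs bind. It is short and was found in 441 of the same windows (1.34%). Of the 60 sterol genes with a window, 3 held it, namely Hmgcs1, Srebf2 and Apoe. The stretches are at chr13:119690174-119690261 (plus strand) for Hmgcs1, chr15:82147067-82147154 (plus strand) for Srebf2 and chr7:19699354-19699438 (minus strand) for Apoe, where it lies in 1 of 3 windows, with the match in capitals. A match describes letters in a window and does not show that a factor was bound there in these cells.
Hmgcs1: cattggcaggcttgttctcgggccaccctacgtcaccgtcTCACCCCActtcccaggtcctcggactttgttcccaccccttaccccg
Srebf2: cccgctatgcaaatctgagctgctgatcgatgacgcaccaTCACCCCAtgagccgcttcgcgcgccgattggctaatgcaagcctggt
Apoe: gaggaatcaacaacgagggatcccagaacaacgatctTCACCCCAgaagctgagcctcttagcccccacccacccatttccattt

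Values are log2 RPM as deposited by the authors, who corrected read counts for library size. The read total they divided by was 0.655 to 0.932 times the reads on genes in the table, with group medians of 0.689 (EOM) and 0.702 (TA) before grafting and 0.778 and 0.840 in grafts, and scalings free of it are given as alternatives. The values are not divided by gene length, so levels are compared between groups and not between genes, and a gene without a read is listed at the value of 0.9 of a read. Of 40 RNA libraries, the 30 that the study passed were compared, 8 EOM and 8 TA pre-graft and 7 EOM and 7 TA grafts. Each held 963432 to 4169357 reads on genes as recovered from the deposited log2 RPM, and the reads given per gene are of this kind. The deposited total read counts of these libraries were larger, 3326270 to 14402975. An EOM pre-graft library that the study left out as an outlier, although it met the study's numeric limits, had Abca1 at 3.62 (28 reads), below every TA pre-graft library. Markers of MuSCs were present in all pre-graft libraries, where all 10 listed markers had reads in each library. Their summed medians before grafting were 18651 RPM (EOM, range 15898 to 19999) and 20702 RPM (TA, 15064 to 26711). In the grafts the summed level was lower and spread widely, with medians of 5102 RPM (EOM, 1485 to 16581) and 3712 RPM (TA, 340 to 11903). Cdh15 had reads in 6 of 7 libraries of each graft group, and the other 9 stem cell markers in every graft. Endothelial markers were higher there, with summed medians of 3058 RPM (range 197 to 5786) and 4471 RPM (1267 to 6881) against 246 RPM (97.1 to 812.5) and 435 RPM (17.1 to 2530), and all 8 had reads in every graft. The summed median of the 8 myofibre markers was 370 RPM (109 to 1269) in EOM grafts and 288 RPM (91.7 to 710.5) in TA grafts, against 96.1 RPM (65.98 to 108.7) and 212 RPM (180.3 to 475.9). The 8 fibro-adipogenic markers did not move together. Their sum had medians of 1513 RPM (933 to 7394) in EOM grafts and 2177 RPM (687 to 3547) in TA grafts, and in TA the mean log2 RPM of Dcn was 7.48 in grafts against 0.92 before grafting and that of Ly6a 9.29 against 5.57, while Dpt was at 7.63 against 10.29. Of the 6 adipocyte markers, Fabp4, which endothelial cells also express, made up most of the sum in grafts, and Adipoq and Plin1 had no reads in any graft. The mean share of reads on mitochondrial genes was 31.4% for the EOM and 24.9% for the TA grafts, against 4.48% and 11.3% before grafting. The part of these shifts in the graft results below was not tested, and in bulk RNA fewer cells of a type and less RNA per cell cannot be told apart.

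**Figure D1:**
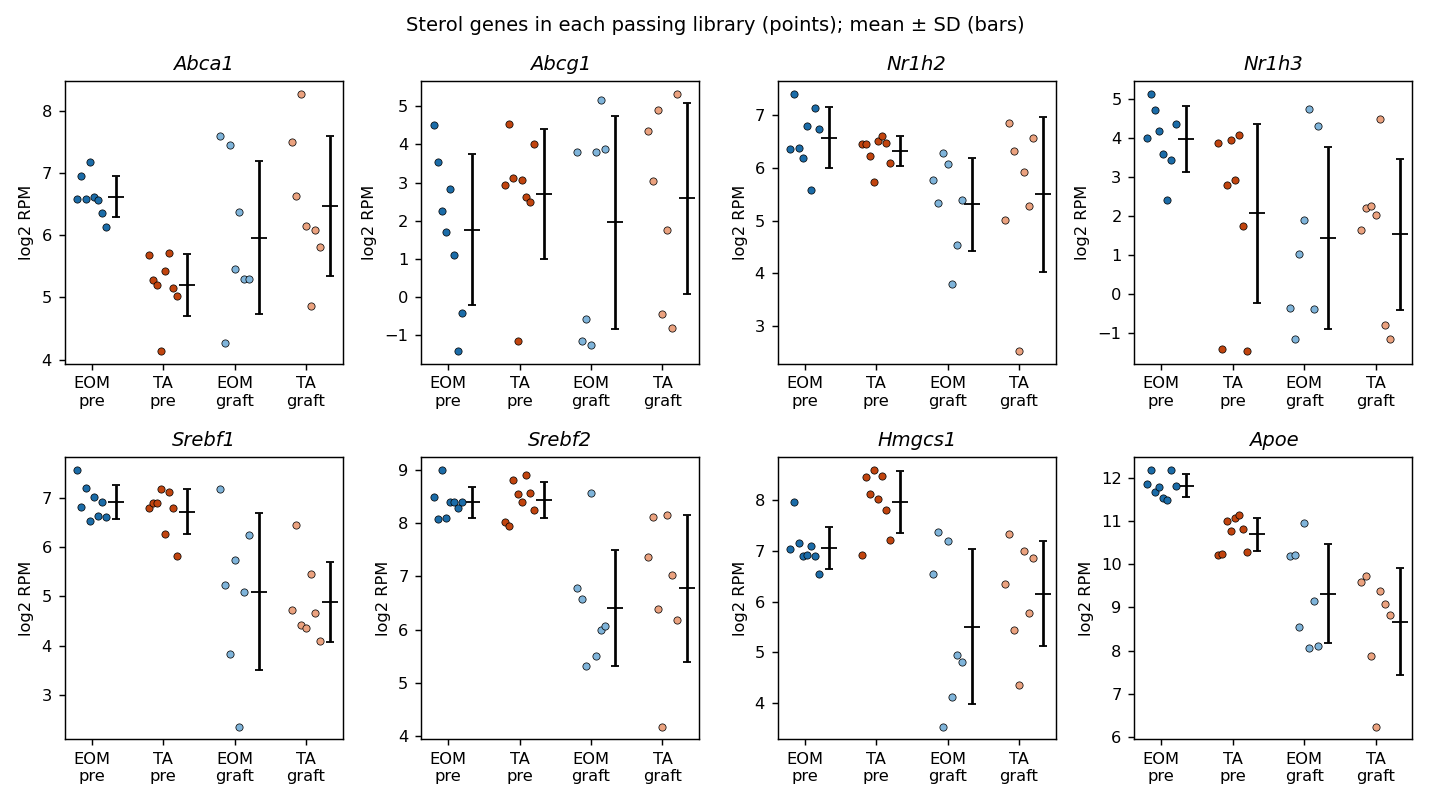
Log2 RPM (y axis) of the 8 sterol genes in each of the 30 passing libraries (points), by muscle and stage (x axis), with the group mean and SD as bars (n = 8, 8, 7 and 7). The pre-graft groups do not overlap for Abca1 and Apoe, both higher in EOM, and the graft libraries spread more widely than the pre-graft libraries for most genes.

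The first comparison asked which sterol genes differed between EOM and TA MuSCs before grafting. The export genes Abca1 and Apoe were higher in EOM, the synthesis enzyme Hmgcs1 was higher in TA by adjusted p but short of the fold limit, and the levels of both SREBP genes were close to each other in the 2 muscles. Abca1, which moves cholesterol and phospholipid out of the cell onto lipid-poor apolipoproteins, had 6.13, 6.58 and 7.18 log2 RPM as lowest, median and highest value in EOM. In TA the corresponding values were 4.14, 5.24 and 5.72. The groups did not overlap, EOM was higher in 7 of 7 donors with both libraries, and the difference was 1.42 ± 0.22 on the log2 scale (SE), or 2.67-fold. When the left-out outlying EOM library was added, the difference was 1.08.

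Apoe, the lipoprotein component that accepts exported cholesterol and is a ligand for lipoprotein receptors, had 11.48, 11.80 and 12.19 log2 RPM as lowest, median and highest value in EOM, against 10.22, 10.80 and 11.13 in TA. No TA library reached the lowest EOM library, and all 7 donors had the higher value in EOM. The difference was 1.13 ± 0.17 (SE) on the log2 scale, 2.18-fold, with adjusted p = 0.000136 in limma. Of all 13217 genes tested 4.56% were called in this comparison. A call required that the adjusted p was under 0.05 and that the groups differed by more than 1 on the log2 scale. Apoe was the 1 called of the 7 sterol genes tested. Groups that did not overlap were found for 2.28% of all genes. EOM was above TA by a median of 0.30 over all genes, so that relative to the median gene Apoe was 0.83 higher. Its call was lost under scalings that remove this shift, where the difference was 0.89 to 0.91 and under the limit of 1 while the adjusted p reached at most 0.000279, and in a fit over all 4 groups (adjusted p = 0.206). Schwann cell markers, a cell type that also makes Apoe, were higher in EOM pre-graft libraries as well, with a summed median of 538 RPM (range 19.6 to 2655) against 18.4 RPM (3.10 to 421.6) in TA, and 1 EOM library had a macrophage sum of 2419 RPM where the median was 36.9. Of the 8 Schwann markers 2, Mbp among them, had reads in every EOM library, and Gfra3 had none. Fibro-adipogenic markers had summed medians of 2478 RPM (1232 to 3709) in EOM and 1475 RPM (1273 to 2363) in TA, sums made up mostly of Dpt (mean log2 RPM 10.84 and 10.29). Other members of that list lay further apart, with Dcn at 6.53 in EOM and 0.92 in TA, Pi16 at 5.29 and 0.23 and Lum at 3.22 and 0.12, and Ly6a the other way at 3.17 and 5.57. Pi16 had reads in 8 of 8 EOM and 2 of 8 TA libraries. Their part in the Apoe result was not tested, and leaving out any single library gave an Apoe difference of 1.06 to 1.19.

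Hmgcs1 was lower in EOM, with 6.54, 6.98 and 7.97 log2 RPM as lowest, median and highest value, against 6.93, 8.08 and 8.61 in TA. The ranges overlapped, and EOM was lower in 6 of 7 donors. The difference was -0.89 ± 0.23 (SE), with adjusted p = 0.0190 in limma, just short of the fold limit, and 1.19 below the median gene. It passed both limits under the 4 rescaled or count-based settings, at -1.11 to -1.18. It also did so without the TA library of mouse 1 of Experiment 2 (-1.04) or the EOM library of mouse 2 of Experiment 2 (-1.02). In Experiment 2 alone it was -0.85, with adjusted p = 0.149 in limma. The study lists Hmgcs1 as TA-specific from these same libraries, so this value is not independent evidence.

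The remaining regulators and the second exporter did not pass the test before grafting. Nr1h3 (LXRα) had 2.43, 4.10 and 5.14 log2 RPM in EOM and -1.45, 2.88 and 4.09 in TA, where 2 of 8 libraries had no read. The groups overlapped, and the difference was 1.91 ± 0.79 (SE, adjusted p = 0.137 in limma). Nr1h2 (LXRβ) had medians of 6.56 and 6.46, with a difference of 0.25 ± 0.22 (adjusted p = 0.497 in limma). Srebf1 differed by 0.20 ± 0.20 (adjusted p = 0.560 in limma), and the sign turned under scalings that remove the shift of all genes. Srebf2, at medians of 8.40 and 8.48, differed by -0.04 ± 0.16 (adjusted p = 0.910 in limma). Abcg1, which exports cholesterol to HDL particles, rested on 0 to 55 reads per library, with 1 library without reads in each group, and its difference was -0.94 ± 0.85 (adjusted p = 0.511 in limma).

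**Figure D2:**
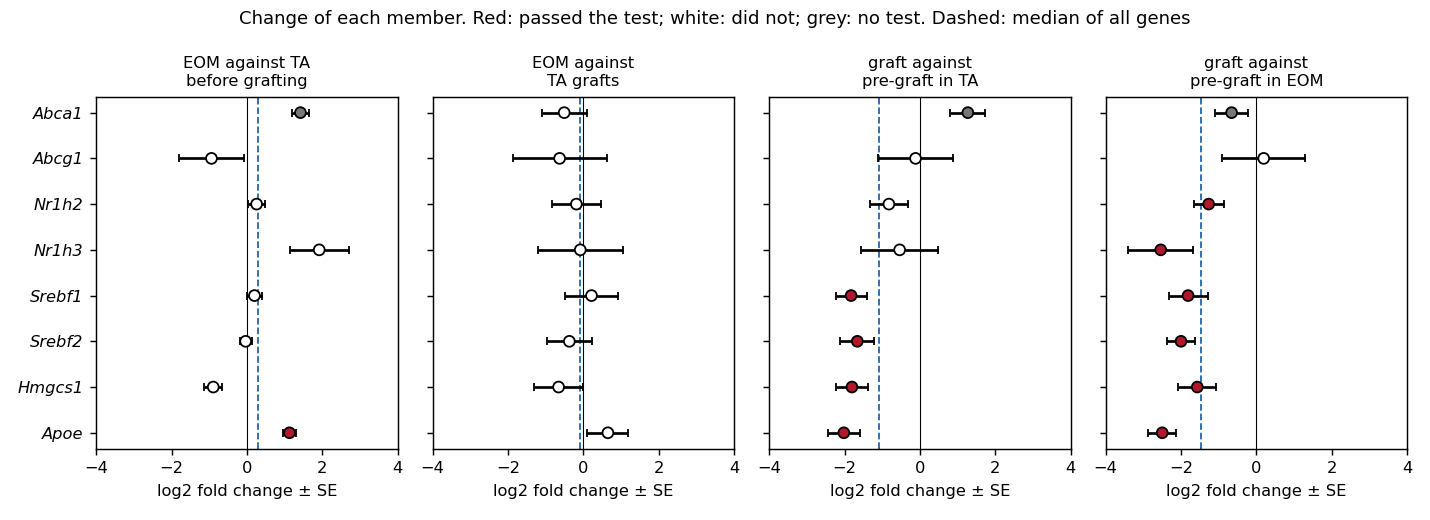
Log2 fold change of each sterol gene (points, bars are SE) in 4 comparisons, with red for genes that passed the test, white for those that did not and grey for Abca1 where it was not tested. The dashed line is the median of all genes tested. The graft comparisons have this line at -1.09 (TA) and -1.48 (EOM), and Abca1 lies to the right of it in both.

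The wider pathway before grafting was read from 74 further sterol genes, of which 68 were tested. EOM had 0 higher and 5 lower by the full rule, against 3.31% and 1.26% of all genes. Among these were Fdps, which makes farnesyl diphosphate, Arl4c, a small GTPase regulated by LXR, and Thrsp, a lipogenic nuclear protein. Fdps, Arl4c and Thrsp were named after their values were seen, because the count is small. All 5 are on the study's TA-specific list, chosen on the same libraries, and so are no independent support. Fdps differed by -1.12 ± 0.25 (adjusted p = 0.00646 in limma), Arl4c by -1.94 ± 0.54 (adjusted p = 0.0270 in limma) and Thrsp by -3.43 ± 0.90 (adjusted p = 0.0202 in limma), and for each the groups overlapped. Thrsp had reads in 4 of 8 EOM and 7 of 8 TA libraries. With the donor as a block 4 genes were called lower, among them Thrsp and Arl4c, while Fdps was lost and Cd36 was gained.

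Among the 20 genes of the mevalonate and cholesterol synthesis list other than Hmgcs1, 15 lay below 0 and the median difference was -0.74, where the median of all genes was 0.30. By adjusted p alone, at any fold, 6 of the 20 were lower in EOM and 0 higher, against 1.73% and 6.14% of all genes. Beside Fdps these included Cyp51, the lanosterol demethylase (-0.99 ± 0.19), Sqle, squalene epoxidase (-0.84 ± 0.25), and Hsd17b7, a sterol ketoreductase (-0.75 ± 0.22). The range of Cyp51 in EOM, 5.70 to 6.70 log2 RPM, did not reach that in TA, 6.81 to 8.10. By contrast, Ebp, a sterol isomerase, was at 0.57 ± 0.25 and Ggps1, which makes geranylgeranyl diphosphate, at 0.45 ± 0.20, neither of which passed the test. With each library centred on its median, 11 of the sterol genes were called lower and 0 higher, and in Experiment 2 alone 1 was called. Over all genes the calls were 234 lower and 275 higher of 13217 when centred. In Experiment 2 alone they were 97 lower and 295 higher of 12596.

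**Figure D3:**
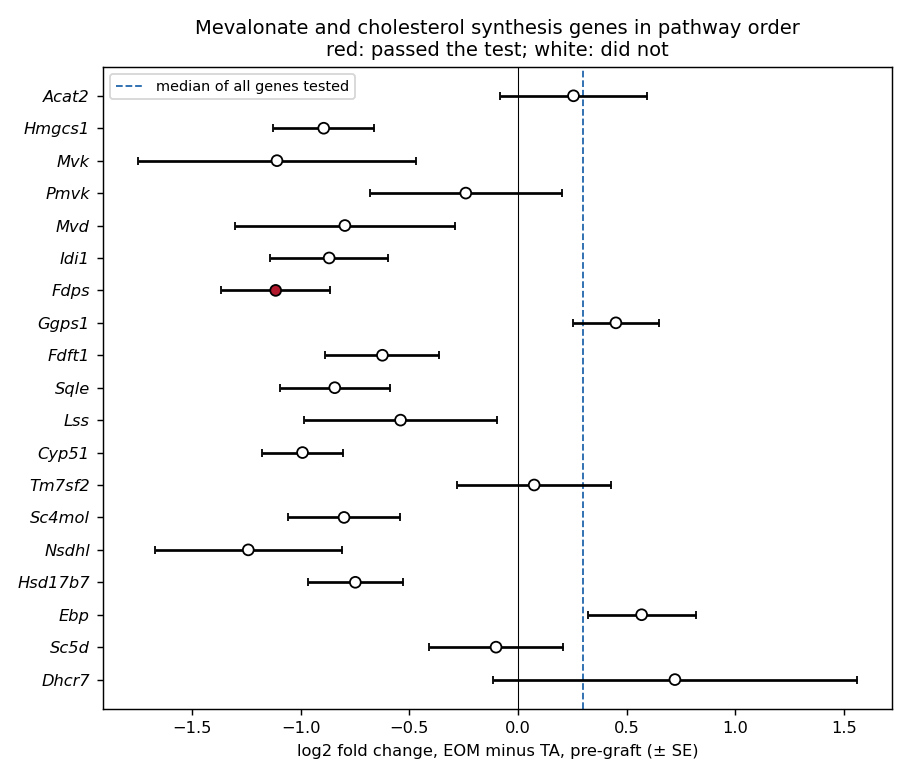
Log2 fold change of EOM against TA before grafting (x axis, bars are SE) for 19 genes of the mevalonate and cholesterol synthesis list, Hmgcs1 included, in the order of the pathway from top to bottom. Red points passed the test, and the dashed line is the median of all genes tested (0.30). Of the 19 points 14 lie to the left of 0, with Fdps at -1.12.

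The uptake receptors, SREBP sensors and LXR genes were read in the same way. Of 16 uptake and transport genes, 1 was called lower in EOM and 0 higher, against 1.26% and 3.31% of all genes. Vldlr, a related lipoprotein receptor, was at -0.66 ± 0.15 (adjusted p = 0.00595 in limma) and its groups did not overlap. Lrp1, a large endocytic receptor for Apoe among other ligands, lay the other way at 0.82 ± 0.15 (adjusted p = 0.00101 in limma), also without overlap. Of the 5 SREBP processing genes 0 were called, with 0 at an adjusted p under 0.05 and 2 at an unadjusted p under 0.05. Of all 13217 genes 3256 were at an unadjusted p under 0.05. Scap was at 0.14 ± 0.28, Insig1, the SREBP-induced brake on Scap, at -0.53 ± 0.17 (adjusted p = 0.0602 in limma), and Insig2, its constitutive relative, at 0.31 ± 0.15. Of 8 further LXR receptors, partners and targets tested, Arl4c was called, while Mylip, an LXR target that promotes the breakdown of lipoprotein receptors, was at 0.51 ± 0.38 (adjusted p = 0.424 in limma).

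The second question was how the genes changed on grafting. Over all genes the median change was -1.09 in TA and -1.48 in EOM on the deposited scale, so changes are also given relative to it. On the deposited scale 4 of 7 tested genes in TA and 6 of 7 in EOM were called lower, and Apoe was the 1 gene called in both muscles also when libraries were rescaled in limma. Abca1 lay above the median gene in both. The 2 graft comparisons do not share libraries with each other, but each shares its pre-graft libraries with the comparison of the muscles.

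Apoe in TA grafts had 6.24, 9.07 and 9.72 log2 RPM as lowest, median and highest value, against 10.22, 10.80 and 11.13 before grafting. In EOM grafts it had 8.05, 9.15 and 10.96, against 11.48, 11.80 and 12.19 before grafting. The graft and pre-graft ranges did not overlap in either muscle, where 5.19% (TA) and 11.3% (EOM) of all genes showed such a separation, and the value was lower in the graft in 7 of 7 TA donors and 6 of 6 EOM donors. The change was -2.02 ± 0.42 (SE, adjusted p = 0.00214 in limma) in TA and -2.50 ± 0.37 (adjusted p = 0.000124 in limma) in EOM, or 4.05-fold and 5.65-fold lower. Relative to the median gene it was -0.93 and -1.02. With libraries centred on their median it was called in both muscles (-1.12 and -1.25), whereas DESeq2 gave -0.94 in TA, inside the fold limit. Schwann cell markers had summed medians of 49.1 RPM (0.50 to 222.5) in EOM grafts and 7.58 RPM (0 to 910.1) in TA grafts. Before grafting these were 538 RPM (EOM) and 18.4 RPM (TA). Macrophage medians were 70.2 RPM (EOM) and 30.8 RPM (TA) in grafts, against 36.9 and 31.0 RPM before. The part of either cell type in the change of Apoe was not tested.

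In TA, 4 of the 7 tested sterol genes were called and all 4 were lower, against 34.7% of all genes called, 30.9% lower and 3.79% higher. They were Apoe, Hmgcs1, Srebf1 and Srebf2. In EOM 6 of 7 were called, all lower, against 59.3% of all genes called, 55.8% lower and 3.51% higher, and they were these 4 with Nr1h2 and Nr1h3. With the donor as a block the EOM count was 4, since Nr1h3 (adjusted p = 0.0543) and Hmgcs1 (adjusted p = 0.0504) were lost in limma. With each library centred on its median, 1 remained in each muscle, Apoe, so that for the other genes the calls depended on the scale.

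Hmgcs1 in TA went from 6.93, 8.08 and 8.61 log2 RPM to 4.36, 6.35 and 7.34 in grafts, and was lower in 7 of 7 donors. The ranges overlapped. The change was -1.80 ± 0.42 (adjusted p = 0.00407 in limma), or -0.72 relative to the median gene. In EOM grafts it had 3.53, 4.94 and 7.37, and the change was -1.57 ± 0.50 (adjusted p = 0.0130 in limma), or -0.09 relative to the median gene. The study's TA-specific list, which holds Hmgcs1, was made from the pre-graft libraries, so neither test is independent of that list.

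Srebf1 changed by -1.83 ± 0.41 (adjusted p = 0.00340 in limma) in TA and by -1.81 ± 0.52 (adjusted p = 0.00706 in limma) in EOM, and was lower in the graft of every donor with both libraries, 7 and 6. Srebf2 changed by -1.66 ± 0.45 (adjusted p = 0.00895 in limma) in TA and by -1.999 ± 0.38 (adjusted p = 0.000633 in limma) in EOM, with graft medians of 7.03 and 6.07. Relative to the median gene Srebf1 was at -0.74 and -0.33 and Srebf2 at -0.58 and -0.52. In Experiment 2 alone the call of Srebf2 in TA was lost (adjusted p = 0.0522 in limma).

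The 2 LXR genes were called lower in EOM and not in TA, and the difference between the muscles did not pass a test of its own. Nr1h2 changed by -1.27 ± 0.40 (adjusted p = 0.0116 in limma) in EOM and by -0.82 ± 0.50 (adjusted p = 0.186 in limma) in TA, and lay 0.21 and 0.26 above the median gene. Its sign turned in TA when libraries were centred on their median (0.07) and under both count-based tests, and in EOM under DESeq2 (0.05). Nr1h3 changed by -2.54 ± 0.86 (adjusted p = 0.0165 in limma) in EOM, where 3 of 7 graft libraries had no read, and its sign turned under edgeR (0.23) and DESeq2 (0.39). In TA it changed by -0.54 ± 1.02 (adjusted p = 0.680 in limma). Abcg1 had no reads in 2 of 7 libraries of each graft group and changed by -0.12 ± 1.00 in TA and by 0.19 ± 1.10 in EOM, with adjusted p of 0.930 and 0.880 in limma.

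Abca1 in TA went from 4.14, 5.24 and 5.72 log2 RPM before grafting to 4.86, 6.16 and 8.28 in grafts. It was higher in the graft in 6 of 7 donors, and the ranges overlapped. The difference was 1.27 ± 0.46 (SE), 2.41-fold, and 2.36 above the median gene. In EOM grafts it had 4.26, 5.45 and 7.60, against 6.13, 6.58 and 7.18 before grafting, and was lower in the graft in 5 of 6 donors. The difference there was -0.66 ± 0.43, or 0.82 above the median gene, and its sign turned with scalings that remove the shift of all genes (0.41 to 1.13). The change of EOM minus that of TA was -1.93 ± 0.64. None of these was tested for Abca1, because the pre-graft libraries chose it.

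**Figure D4:**
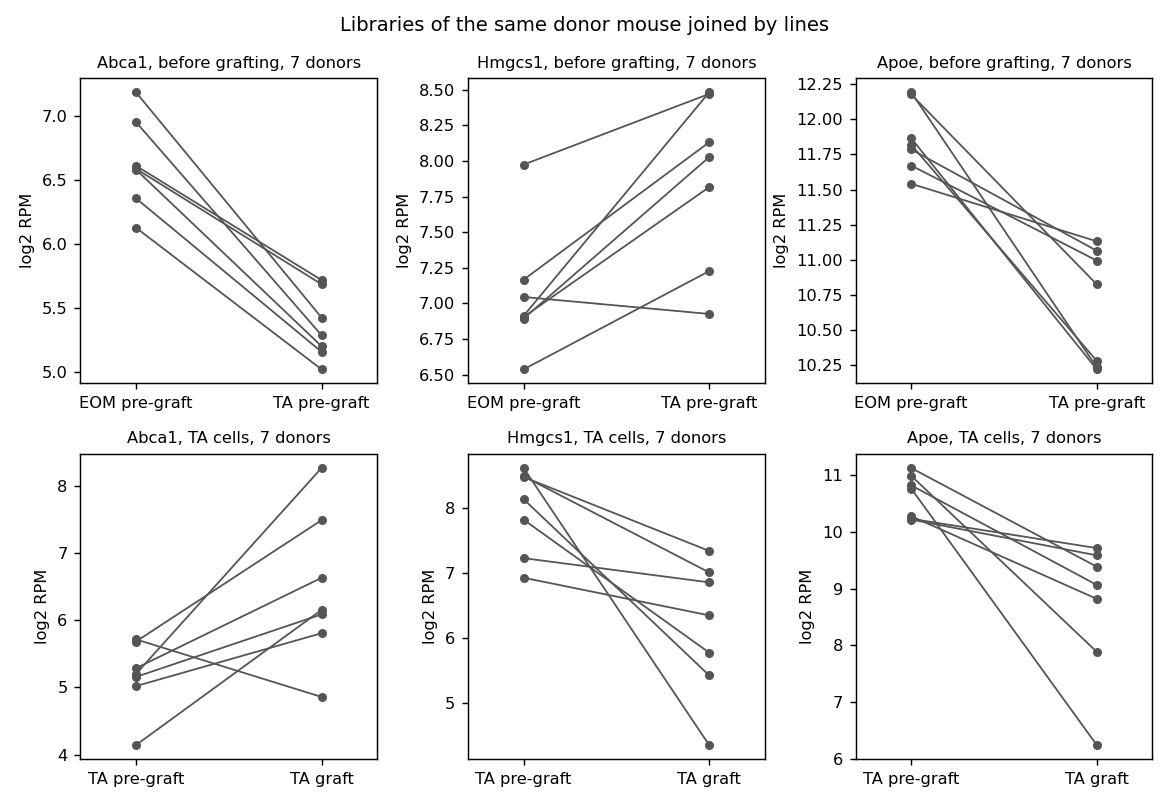
Log2 RPM (y axis) of Abca1, Hmgcs1 and Apoe in libraries of the same donor mouse, joined by a line, for EOM and TA before grafting (top) and for TA cells before and after grafting (bottom). Abca1 and Apoe were higher in EOM in 7 of 7 donors, and in TA grafts Hmgcs1 and Apoe were lower in 7 of 7 donors while Abca1 was higher in 6 of 7.

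Among the other sterol genes, TA grafts had 34 called lower and 3 higher of 67 tested, and EOM grafts 39 lower and 2 higher of 66 (25 in all with the donor as a block). The median change of the other sterol genes was -1.54 in TA and -1.64 in EOM, against -1.09 and -1.48 over all genes. The synthesis list had a median of -2.05 in TA, with 15 of 20 called lower where 30.9% of all genes were, and of -1.75 in EOM, with 11 of 20 called lower where 55.8% of all genes were. In EOM the counts of the synthesis list and of all other sterol genes were thus near that background. In TA 3 of the 20 lay above the median gene, and in EOM 9 of 20. Nsdhl, a sterol dehydrogenase, changed by -3.64 ± 0.80 (adjusted p = 0.00288 in limma) in TA and by -0.11 ± 0.81 in EOM. In TA grafts it rested on 0 to 51 reads, with reads in 5 of 7 libraries. Its TA call held with centred libraries but not with edgeR or DESeq2. The difference between its graft changes in the muscles was not called by limma, edgeR or DESeq2. Fasn, which makes palmitate, changed by -1.99 ± 0.41 in TA and -3.11 ± 0.57 in EOM, and was called lower in both also with centred libraries. Insig1 fell by 1.82 in TA and by 1.75 in EOM on the deposited scale. With centred libraries the calls among the other sterol genes were 10 lower and 9 higher in TA and 2 lower (Fasn and Cyp27a1, a sterol hydroxylase) and 6 higher in EOM. Over all genes they were 743 lower and 1003 higher of 13076 in TA, and 634 lower and 871 higher of 13094 in EOM.

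The few that rose on the deposited scale were named after their values were seen. Cd36, a scavenger receptor for lipids, rose by 3.53 ± 0.98 (adjusted p = 0.0106 in limma) in TA and by 5.58 ± 1.40 (adjusted p = 0.00348 in limma) in EOM. It had no reads in 1 library of each pre-graft group, and 45 reads or more in every graft library. Cd36 is also made by capillary endothelium, and the endothelial markers given above were higher in the same libraries; their part in the Cd36 result was not tested. Scarb1, the HDL receptor, rose by 1.49 ± 0.56 and Ch25h, which makes the LXR ligand 25-hydroxycholesterol, rose by 3.12 ± 1.01 in TA, where 3 of 8 pre-graft libraries had any Ch25h reads. Thrsp rose by 3.95 ± 1.08 in EOM. Mylip was at 1.04 ± 0.52 in TA (adjusted p = 0.112 in limma) and -0.28 ± 0.37 in EOM.

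After grafting, EOM and TA cells were compared in libraries that had no part in choosing Abca1, so that all 8 genes were tested. For Abca1 the grafts had medians of 5.45 (EOM) and 6.16 (TA) log2 RPM, with overlapping ranges of 4.26 to 7.60 and 4.86 to 8.28. The difference was -0.51 ± 0.60 (adjusted p = 0.99993 in limma), with the higher value in EOM in 3 of 6 donors. Apoe was at 0.65 ± 0.54 and Hmgcs1 at -0.66 ± 0.64, in the directions seen before grafting. Of the 8 genes 0 were called by limma, edgeR or DESeq2, and 0% of all 12377 genes were called in limma. At an unadjusted p under 0.05 in limma were 0 of the 8 and 452 of all 12377 genes. The groups overlapped for each of the 8, and 0.0162% of all genes had groups without overlap. The SE of the 8 differences was 0.54 to 1.25, against 0.16 to 0.85 before grafting, so that differences of the pre-graft size were not detectable for most of these genes. The test of the difference between the graft changes of EOM and TA made no call among the 7 genes (0 in limma, edgeR and DESeq2, and 0 had an unadjusted p under 0.05), where 0.208% of all genes were called. Of the other sterol genes it called 0 of 71, with 5 at an unadjusted p under 0.05, where 1041 of all 14428 genes were. DESeq2 called 2 of the other sterol genes, Cyp51 included, and limma on grafts of at least 20 cells called 1, all with the higher value for EOM. Over all genes DESeq2 called 72 higher and 32 lower, and limma on those grafts 9 higher and 29 lower.

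Across the 30 libraries, with each library's median removed, Abca1 had Pearson r = -0.70 with Srebf2, -0.69 with Hmgcs1 and -0.41 with Srebf1. It was also negatively related to Apoe (-0.47), and had r = 0.33 with Abcg1 and 0.16 with Nr1h3. These values describe libraries that share group, depth and cell number, and no test was made. Hmgcs1 and Srebf2 had r = 0.57, Apoe and Srebf2 0.59, and Nr1h2 had r between -0.12 and 0.04 with each other member. The gene most like Hmgcs1 among 11449 genes was Insig1 (r = 0.87), and the next were Pax7 (0.74), Mt2, a metallothionein (0.74), Svep1, an extracellular matrix protein (0.74), and Fdps (0.73). Within groups the r of Insig1 with Hmgcs1 was 0.60 to 0.91. The genes most like Abca1 were Gbp2, an interferon-induced GTPase (0.84), Hdgfrp3 (0.82), Aplp2 (0.82), Mast4 (0.81) and Tmem140 (0.80). For Gbp2 the r was 0.85 and 0.84 within the EOM and TA grafts but 0.16 and 0.25 within the pre-graft groups.

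**Figure D5:**
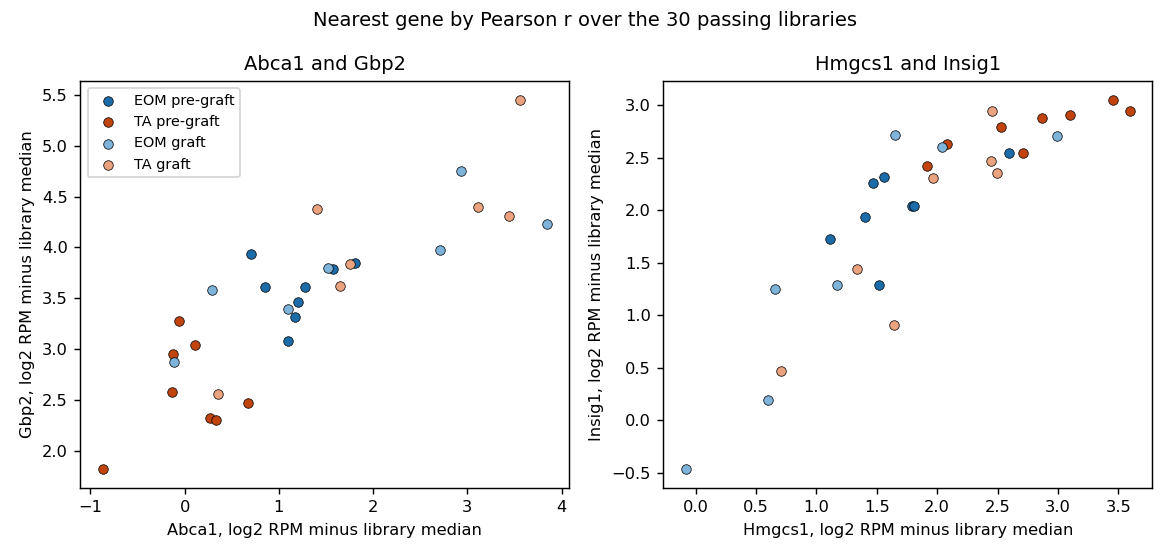
Log2 RPM minus the library median for Abca1 (x axis, left) against Gbp2, and for Hmgcs1 (x axis, right) against Insig1, the gene most like each, in the 30 passing libraries coloured by group. Hmgcs1 and Insig1 rise together in every group (r = 0.87 over all), while Abca1 and Gbp2 do so mainly across the grafts (r = 0.84 over all).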

How the data were processed

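RNA was measured in 40 libraries and the 30 passed by the study were compared; 40 bisulfite libraries were not analysed here. Per the labels and methods, the authors trimmed reads (Trim Galore 0.4.4), aligned them to GRCm38 (HISAT2 2.1.0) and deposited log2 RPM per gene from SeqMonk; the annotation release and counting options are not given in the sources used here. The deposited library summaries hold read counts and percent of reads in genes, exons and mitochondrial genes. About 50% of reads lay on the sense strand, so overlapping antisense genes cannot be told apart.

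Genes that exceeded log2 RPM 1 in 4 or more compared libraries were fitted in limma 3.58.1 with trended moderated variances, two-sided, with Benjamini-Hochberg adjustment over all genes tested. Calls needed both an adjusted p below 0.05 and an absolute log2 difference above 1. edgeR 4.0.16 and DESeq2 1.42.0 (R 4.3.3) were run on whole reads recovered from the deposited log2 RPM (99.9932% of values whole within 0.02). The limma and edgeR fits of the muscles before grafting and of grafts against pre-graft in TA were also run on simulated counts. DESeq2 and the other comparisons were not simulated. The simulated counts held no shift of all genes, so they cannot show how the fits behave under the shift seen in grafts. The 8 genes and the lists were chosen with earlier results of these data known. The rule for genes named beside the 8 took those of the 6 pathway lists called in any comparison, at most 16 by smallest adjusted p. It always took Sqle, Insig1, Mylip and Scap, and the 5 genes most correlated with Abca1 and with Hmgcs1. Not all named genes came from this rule. Fdps, Arl4c, Thrsp and the few that rose in grafts were named after their values were seen. Some genes that the rule names are not reported here.

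Equal mouse and experiment numbers mark the same donor, so libraries are paired by donor; deviations of same-donor libraries from their group means correlated at -0.25 to 0.23. The main fits did not use this pairing, which entered only in the alternative with the donor as a block. The p-values of the main fits rest on the spread between libraries of different donors. In that spread, differences between donors and between libraries cannot be told apart. Experiment 1 gave too few passing libraries for values of its own. Alternatives were other pseudocounts, filters, scalings, fits, tools and sets of libraries.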

Additional observations from a re-analysis of the deposited data

Results flagged for a closer look

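Of 32 groups of 7 or 8 libraries, 1 for each gene and group, 5 had a library far from the others by Dixon's test at the 95% level, which chance gives in about 1 in 20 groups. In TA before grafting the library of mouse 3 of Experiment 2 was the low one for both Abca1, at 4.14 log2 RPM where the others had 5.02 to 5.72, and Abcg1, at -1.14 where the others had 2.48 to 4.53, a library without a read of Abcg1. The TA graft of the same mouse was low for Nr1h2, at 2.52 against 5.01 to 6.85. In EOM before grafting, mouse 3 of Experiment 1 was high for Srebf2, at 9.01 against 8.08 to 8.50, and mouse 2 of Experiment 2 was high for Hmgcs1, at 7.97 against 6.54 to 7.17.

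Of 80 values of the 8 genes in the 10 libraries left out by the study, 9 had reads and lay above the highest passing library of their group, and 11 rested on no read. Abca1 was at 8.07 in the EOM graft of mouse 1 of Experiment 1, where the passing EOM grafts reached 7.60, and Abcg1 in the same library was at 5.17. Abcg1 was at 5.02 in the left-out outlying EOM pre-graft library. The TA pre-graft library of mouse 5 of Experiment 1, which held 56368 reads on genes and lists a gene without a read at 4.40, had Srebf2 at 8.95 (21 reads), Hmgcs1 at 8.73 (18 reads) and Apoe at 11.41 (116 reads). Its Abcg1 value of 4.56 was 1 read, next to that floor, and shows no high level. The TA graft of that mouse had Nr1h3 at 5.05 (8 reads) and Apoe at 10.45 (336 reads).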

How the results depend on the processing

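Scale decided most graft calls. Before grafting, 1 of the 7 genes tested (Apoe) and 5 other sterol genes were called. The first count was 0 with all libraries and in a fit over 4 groups, and 1 to 2 when a library was left out. Under the rescaled and count-based settings this count stayed the same but the gene changed, since Apoe lost its call and Hmgcs1 passed both limits. The second count, of other sterol genes, was 1 in Experiment 2 alone, with all libraries and in a fit over 4 groups. It was 11 when scaled without mitochondrial genes, 11 with libraries centred on their median, 10 with edgeR and 11 with DESeq2. In TA grafts the counts of 4 and 37 became 2 and 19 without mitochondrial genes, 1 and 19 when centred, 1 and 8 with edgeR and 0 and 11 with DESeq2, and the second was 17 in Experiment 2 alone. In EOM grafts 6 and 41 became 1 and 7 without mitochondrial genes, 1 and 8 when centred, 1 and 7 with edgeR and 1 and 12 with DESeq2, and the second was 25 with the donor as a replicate block and 25 with grafts of at least 20 cells, an alternative chosen after seeing the data. For the difference between graft changes, the 0 other sterol genes became 2 with DESeq2 and 1 with grafts of at least 20 cells. The cause was not tested. The all-gene median change was -0.19 (TA) and -0.23 (EOM) when centred, against -1.09 and -1.48, and the calls over all genes went from 496 higher and 4046 lower to 1003 and 743 in TA and from 460 and 7302 to 871 and 634 in EOM. Before grafting they went from 437 higher and 166 lower to 275 and 234. Apart from the lost and gained calls given beside the results, the donor block changed no call among the 8 genes. Read depth limits Abcg1 and Nr1h3 most, which had no reads in up to 3 libraries of a group.

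Signs turned only for genes that were not called, apart from Nr1h2 and Nr1h3 in EOM grafts. Abcg1 before grafting was 0.054 with all libraries. Abcg1 in TA grafts was 0.019 with log2(RPM + 1), 0.024 with the experiment as covariate, 0.40 with all libraries, 0.67 without mitochondrial genes, 0.78 centred, 1.08 with edgeR and 1.21 with DESeq2. Abcg1 in EOM grafts was -0.10 with the experiment as covariate, -0.80 with all libraries and -0.17 with the outlying EOM library. Abcg1 between grafts was 0.28 with the replicate block, 0.28 in Experiment 2 alone, 0.26 with edgeR and 0.30 with DESeq2, and in the difference between graft changes -1.19 with all libraries and -0.052 with the outlying library. Nr1h2 in TA grafts was 0.072 centred, 0.16 with edgeR and 0.27 with DESeq2, in EOM grafts 0.049 with DESeq2 and between grafts 0.33 with all libraries. Nr1h3 in TA grafts was 0.25 without mitochondrial genes, 0.36 centred, 0.38 with edgeR and 0.50 with DESeq2, and in EOM grafts 0.23 and 0.39 with these tools. Nr1h3 between grafts was 0.0067 with log2(RPM + 1), 0.028 centred, 0.75 with edgeR and 0.77 with DESeq2. Srebf1 before grafting was -0.021 without mitochondrial genes, -0.041 centred, -0.073 with edgeR and -0.085 with DESeq2, and in the difference between graft changes -0.20 in Experiment 2 alone and -0.26 with all libraries. Srebf2 before grafting was 0.16 with all libraries, and in the difference between graft changes 0.073 centred, where Hmgcs1 was -0.22 in Experiment 2 alone.

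With a library left out, the sign turned within -0.34 to 0.73 for Abcg1 in EOM grafts, -0.67 to 0.45 in TA grafts and -0.26 to 0.86 in the difference between graft changes. The latter ran from -0.076 to 0.56 for Hmgcs1 and from -0.33 to 0.47 for Srebf1. Between grafts the range was -0.68 to 0.066 for Nr1h2, -0.64 to 0.41 for Nr1h3 and -0.13 to 0.67 for Srebf1, and before grafting -0.12 to 0.031 for Srebf2.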
